A study of Mus musculus with 48 samples.

Results

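The mRNAs of 7 nonsense-mediated decay (NMD) factors, Upf1, Upf2, Upf3a, Upf3b, Smg1, Smg5 and Smg6, were followed after a block of transcription in mouse embryonic stem cells. The genes were taken by name and matched from their Ensembl identifiers, 7 of 23862 identifiers listed in at least 1 library. The cells were of the E14TG2a line, a feeder-independent embryonic stem cell line, grown with 2i and LIF and treated with 1 µM flavopiridol, an inhibitor of the CDK9 kinase that transcription by RNA polymerase II needs. Total, nucleus, cytosol and membrane fractions were sampled at 30, 60, 120 and 240 min, with 3 independently passaged replicates each, which gave 48 libraries. The fractions came from digitonin permeabilization, which releases the cytosol, followed by NP-40 lysis, which releases membrane-bound RNA and leaves the nuclei. Titles and the paper's section on fitting these half-lives give the last time as 240 min, which is used here, while the treatment protocol names 180 min. Every sample was treated, and the untreated 0 min samples enter only as the denominator of the ratios.

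NMD is the pathway that degrades mRNAs whose translation ends at a premature or otherwise unusual stop codon. UPF1 is its central RNA helicase, UPF2 and the paralogues UPF3A and UPF3B link UPF1 to the exon junction complex left by splicing, SMG1 is the kinase that phosphorylates UPF1, and SMG5 and SMG6 are recruited to phosphorylated UPF1, where SMG6 cuts the RNA and SMG5 connects to deadenylation and decapping. Several of these factors are encoded by mRNAs that are themselves known NMD targets. In embryonic stem cells NMD is known for its part in the exit from pluripotency.

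Each value is a ratio to the same fraction's level at 0 min, after the authors scaled libraries on long-lived genes. A ratio of 1 therefore means the starting level, and a value carries no information on how abundant an mRNA was or how it was divided between fractions. For the same reason, the identity of the fractions could not be checked with marker RNAs. Of 7 stem cell markers, 5 were listed in all 48 libraries and the least listed in 37, against 0 of 10 markers of other cell types in all 48. Those others were still listed in 44 to 46 libraries for mesoderm, 7 to 47 for neural, 12 to 44 for fibroblast and 0 to 42 for primitive endoderm. A listing shows only that a gene was above 0, so these counts do not settle the cell type. Libraries listed 15067 to 19501 genes, no pair of libraries was identical, and 10694 genes were listed in all 48. The library of nucleus at 30 min, replicate 1, stood apart, with a median ratio over its genes of 0.555 against 0.934 and 0.805 in the other 2 replicates, so that nuclear results are given with and without it where they changed.

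Of the 7 factors, 6 were listed in all 48 libraries and Upf1 in 5. Upf1 (ENSMUSG00000058301, chr8:70331525-70353278, minus strand, GRCm38, 21.75 kb) had ratios of 0.386 in total at 30 min replicate 2, 0.342 in total at 60 min replicate 1 and 0.359 in total at 60 min replicate 3. In the nucleus it was listed at 30 min in replicate 2, with a ratio of 1.05, and in replicate 3, with a ratio of 0.432. It was listed in no library of cytosol or membrane and in none at 120 or 240 min. Each replicate had an entry in total, so the level of Upf1 at 0 min was above 0 there. For a missing entry in total, a loss of the RNA and a step of the counting cannot be told apart. In nucleus replicate 1, cytosol and membrane, a value of 0 at 0 min cannot be told apart from these either. Upf1 overlaps Cers1 and Gdf1 on the opposite strand, and no slope was fitted for it.

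Over time the 6 fitted factors fell in most fractions and none rose. The number that fell was 6 of 6 in total, where 56.9% of all genes fell, 5 of 6 in nucleus (61.9% of all genes), 6 of 6 in cytosol (67.1%) and 5 of 6 in membrane (62.2%), by limma at an adjusted p under 0.05. Genes that rose made up 3.39%, 3.32%, 2.95% and 4.09% of the genes tested, in the same order. The factors' median slope on the log2 scale was -0.22 per hour in total, -0.32 in nucleus, -0.26 in cytosol and -0.23 in membrane, next to -0.22, -0.30, -0.28 and -0.26 over all genes. These directions depended on the scaling. When every library was centred on the median of its genes, which brought the median slope over all genes to between 0.00 and 0.01, the number that fell was 1, 1, 2 and 1 in total, nucleus, cytosol and membrane, and the number that rose was 2, 1, 2 and 2. Over all genes, centring left 31.0%, 29.2%, 32.4% and 30.9% that fell and 28.8%, 29.6%, 29.4% and 28.3% that rose. Without replicate 2 or without replicate 3 the number that fell was 4 in total and 4 in nucleus.

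**Figure D1:**
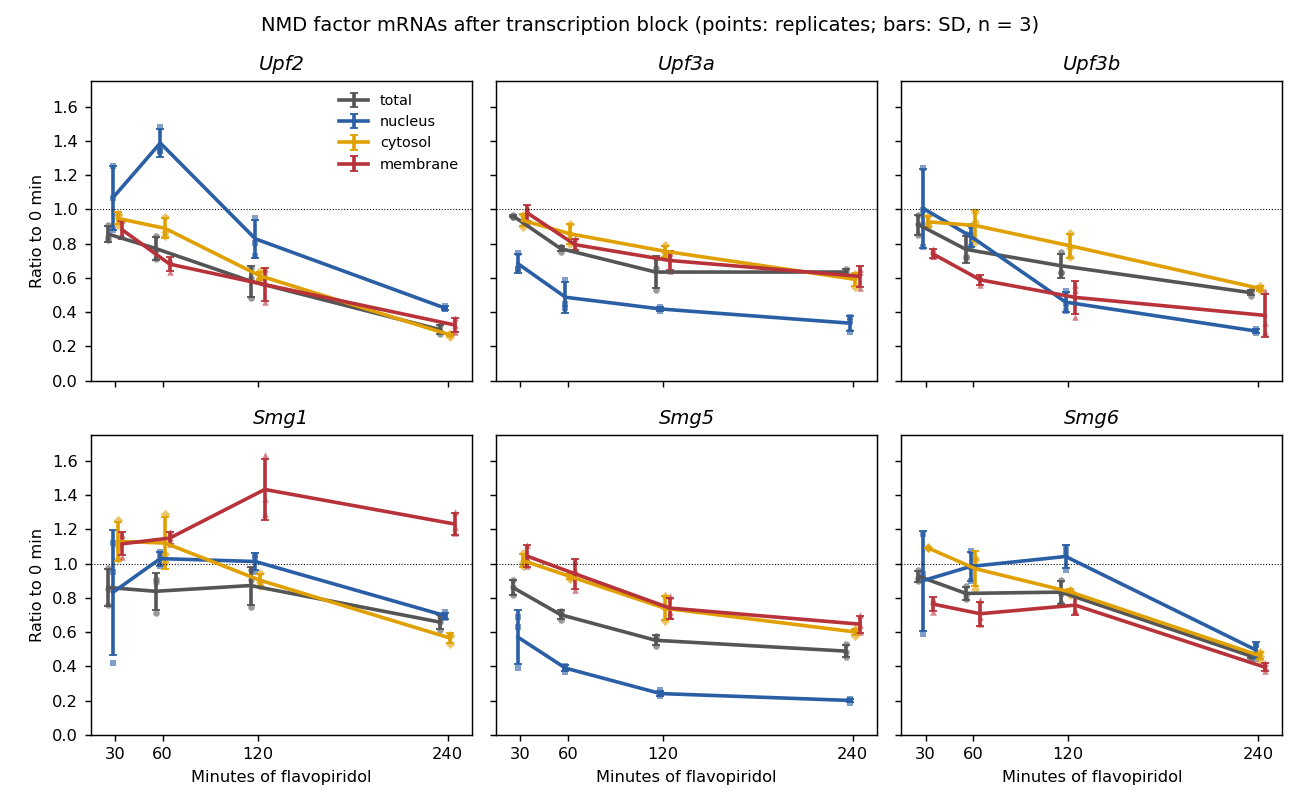
Ratio to 0 min (y axis) against minutes of flavopiridol (x axis) for the 6 factors listed in all libraries. Points are replicates, drawn slightly apart, and lines join means with SD (n = 3). Smg1 stayed above 1 in membrane (1.04 to 1.63), Smg5 reached 0.188 to 0.207 in nucleus at 240 min, and Upf2 in nucleus was at 1.34 to 1.48 at 60 min.

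Upf2, the adaptor between UPF1 and the UPF3 proteins, had the steepest slope of the 6 in total, cytosol and membrane. The gene (ENSMUSG00000043241, chr2:5951469-6056703, plus strand, GRCm38) spans 105.24 kb and 22 exons. In total RNA its ratios were 0.821, 0.912 and 0.837 at 30 min, 0.710, 0.762 and 0.844 at 60 min, 0.483, 0.601 and 0.661 at 120 min, and 0.274, 0.326 and 0.292 at 240 min. In cytosol they were 0.908 to 0.972 at 30 min, 0.846 to 0.955 at 60 min, 0.597 to 0.638 at 120 min and 0.258 to 0.275 at 240 min, so that the 120 and 240 min groups did not overlap with each other or with earlier ones. In membrane they went from 0.847 to 0.941 at 30 min to 0.282 to 0.369 at 240 min. Upf3b had lower means in membrane at 30, 60 and 120 min (0.741, 0.589 and 0.487 against 0.881, 0.681 and 0.561), and at 240 min the 2 genes overlapped. The slopes of Upf2 were -0.44 ± 0.04 (SE) log2 per hour in total, -0.54 ± 0.03 in cytosol and -0.39 ± 0.04 in membrane, with limma adjusted p of 3.89e-07, 4.08e-09 and 2.26e-06. The direction held after centring, with slopes of -0.21, -0.26 and -0.13 and limma adjusted p of 0.000259, 4.04e-06 and 0.00405. The half-life from a single exponential was 143 ± 14 min in total, 122 ± 6.1 min in cytosol and 147 ± 40 min in membrane (SD over 3 replicate series).

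In the nucleus Upf2 followed another course. Its ratios there were 0.882, 1.26 and 1.07 at 30 min, then 1.34, 1.34 and 1.48 at 60 min. They came down to 0.952, 0.804 and 0.731 at 120 min and to 0.416, 0.436 and 0.419 at 240 min. All 3 values at 60 min lay above every other nuclear value of Upf2, and above 1. The straight-line slope was -0.44 ± 0.06 log2 per hour (limma adjusted p = 3.00e-05), which does not describe the early values, and it did not pass after centring (-0.13, limma adjusted p = 0.106). The slope in nucleus minus that in cytosol was 0.10 (95% interval -0.04 to 0.23) and was not past the threshold.

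The 3′ untranslated region of Upf2 holds 3 copies of ATTTA, the DNA letters of the AUUUA pentamer known from AU-rich elements, which bind proteins that speed or slow mRNA decay. The windows are shown because Upf2 had the shortest fitted half-life of the factors in total, cytosol and membrane, although in membrane it overlapped with Upf3b. They are read from the mm10/GRCm38 genome, on the sense strand of the transcript only, with the pentamer in capitals:
chr2:6055827-6055851: tttaaacttgATTTAagttacagtg
chr2:6056427-6056451: cagtctgttaATTTAttaggatagg
chr2:6056474-6056498: aggcatagtgATTTAgttaaagaac
Among 3057 untranslated regions of similar length (0.8 to 1.25 times its 1261 bases), 41.0% held 3 or more copies. Smg1 held 8 copies in 4233 bases (47.1% of 1485 regions of similar length held as many), Upf3a held 2 in 719 bases (34.6% of 2516), and Upf1, Upf3b and Smg6 held 1 each. Smg5 held none in 1230 bases, while 81.3% of 3042 similar regions held at least 1. These matches are a description of the sequence, and their part in the time courses was not tested.

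The paralogues Upf3a and Upf3b encode the UPF3 proteins, of which UPF3B is the better known activator of the pathway. Upf3a (ENSMUSG00000038398, chr8:13785615-13799193, plus strand) and Upf3b (ENSMUSG00000036572, chrX:37091678-37110322, minus strand) are short genes of 13.58 and 18.64 kb. In total RNA Upf3a was at 0.956 to 0.970 at 30 min, 0.754 to 0.780 at 60 min, 0.532 to 0.716 at 120 min and 0.618 to 0.650 at 240 min. Its values at 120 and 240 min overlapped, so that it levelled off within the spread of the replicates. Total Upf3b went from 0.852 to 0.970 at 30 min to 0.496 to 0.528 at 240 min, which lay below every Upf3a value at that time. The slopes in total were -0.15 ± 0.04 for Upf3a and -0.22 ± 0.03 log2 per hour for Upf3b (limma adjusted p = 0.00823 and 4.08e-05). The call for Upf3a was lost without replicate 2 (limma adjusted p = 0.07) and without replicate 3 (limma adjusted p = 0.0715). After centring, Upf3a rose in total, cytosol and membrane (slopes 0.08, 0.10 and 0.09, limma adjusted p = 0.0148, 0.00155 and 0.00744), whereas Upf3b in total did not pass (0.01, limma adjusted p = 0.813).

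The 2 paralogues separated in the nucleus. Nuclear Upf3a was at 0.650, 0.748 and 0.651 at 30 min and 0.425, 0.446 and 0.591 at 60 min. Nuclear Upf3b was at 0.779, 1.24 and 0.998 at 30 min and 0.779, 0.849 and 0.901 at 60 min, and at both times its 3 values lay above all 3 of Upf3a. Over all genes under 20 kb the nuclear quartiles were 0.582 and 0.903 at 30 min and 0.398 and 0.817 at 60 min. The means of Upf3a (0.683 and 0.488) lay within them and those of Upf3b (1.01 and 0.843) above. By 120 min the genes overlapped (0.405 to 0.431 for Upf3a, 0.409 to 0.521 for Upf3b), and at 240 min Upf3a was at 0.373, 0.348 and 0.287 and Upf3b at 0.278, 0.302 and 0.291. The log2 ratio of Upf3a minus that of Upf3b in the same library was -0.54, -0.80, -0.12 and 0.20 at the 4 times, a slope of 0.26 ± 0.07 per hour (SD over replicate series). The exact permutation test over libraries gave p = 0.00119, adjusted 0.0095 over 8 tests of 2 pairs in 4 fractions. This difference does not depend on how a library is scaled. Without 1 replicate the adjusted p was between 0.0738 and 0.0952 by the same exact test, past the threshold in none of the 3 cases. Restricted to 30, 60 and 120 min the slope was 0.33 (exact permutation p = 0.0756, adjusted 0.151). The difference fell until 60 min and then turned, so the slope describes the later change and not the early separation. In membrane Upf3a was above Upf3b in every library but with no change in the difference past the threshold (0.09 ± 0.10 per hour, exact permutation p = 0.0954, adjusted 0.153).

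Upf3b also had the only slope that passed between nucleus and cytosol. In cytosol its ratios were 0.964, 0.919 and 0.901 at 30 min, 0.925, 0.810 and 0.984 at 60 min, 0.864, 0.776 and 0.723 at 120 min, and 0.534, 0.528 and 0.553 at 240 min. The nuclear values at 120 and 240 min, given above, lay below all cytosolic values at the same times. The slope was -0.51 ± 0.06 log2 per hour in nucleus and -0.23 ± 0.03 in cytosol. The difference of -0.28 ± 0.06 (95% interval -0.40 to -0.16) had a limma adjusted p of 0.00217, and 1 of 6 factors differed in this direction, as did 8.3% of all genes tested. In the opposite direction 0 of 6 factors and 12.3% of all genes passed. The difference lost its call without replicate 3 (-0.27, limma adjusted p = 0.0632). Against membrane the nuclear slope of Upf3b was lower by -0.25 ± 0.08 (limma adjusted p = 0.0584), and without the nuclear 30 min library of replicate 1 by -0.27 ± 0.08 (limma adjusted p = 0.0394), where 6.16% of genes had a lower and 2.19% a higher nuclear slope with all libraries, against 0 of 6 factors in either direction. The nuclear half-life of Upf3b was 98.9 ± 36 min, against 271 ± 11 min in cytosol.

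**Figure D2:**
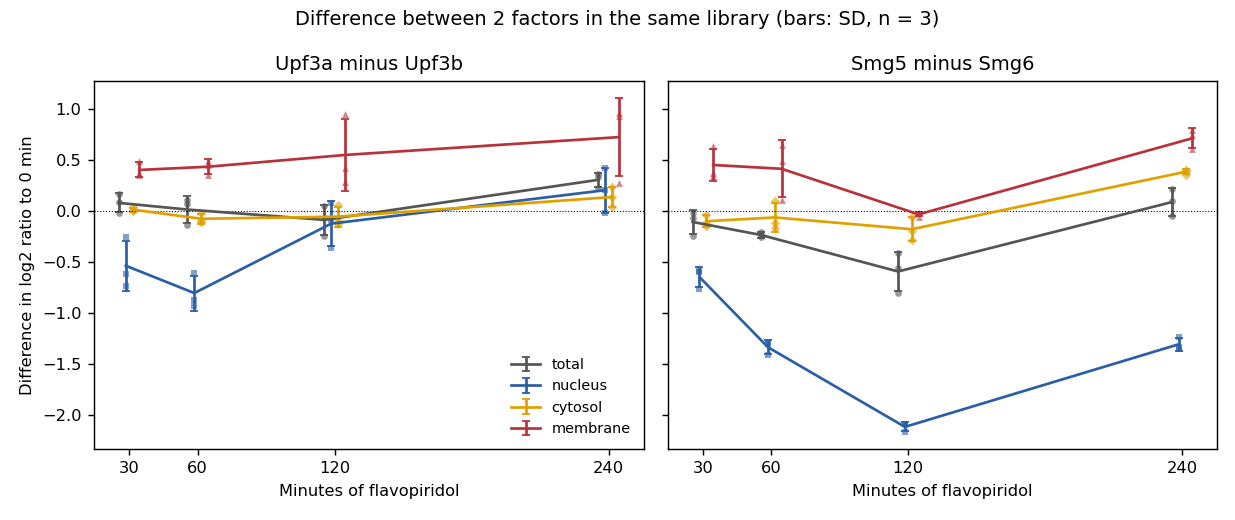
Difference in log2 ratio to 0 min between 2 factors in the same library (y axis) against minutes of flavopiridol (x axis), for Upf3a minus Upf3b (left) and Smg5 minus Smg6 (right), by fraction. Points are replicates and bars SD (n = 3). In nucleus the left difference went from -0.54 at 30 min to 0.20 at 240 min and the right from -0.65 at 30 min to -2.11 at 120 min.

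Smg1, the kinase of UPF1, had the largest of the 18 slope differences between fractions that were tested. The gene (ENSMUSG00000030655, chr7:118131308-118243670, minus strand) spans 112.36 kb and 63 exons and overlaps the unclassified transcript Gm45084 on the same strand, to which reads could be shared. In membrane its ratios were 1.17, 1.14 and 1.04 at 30 min, 1.18, 1.11 and 1.15 at 60 min, 1.37, 1.29 and 1.63 at 120 min, and 1.18, 1.3 and 1.21 at 240 min. All 12 lay above 1. In cytosol they were 1.03, 1.10 and 1.26 at 30 min, 1.06, 1.01 and 1.29 at 60 min, 0.895, 0.871 and 0.942 at 120 min, and 0.578, 0.533 and 0.584 at 240 min. The fractions overlapped at 30 and 60 min and were apart at 120 and 240 min. At 60 and 120 min the mean of total lay below those of nucleus, cytosol and membrane. How well the scaling matches between fractions was not tested.

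The slope of Smg1 was 0.04 ± 0.04 log2 per hour in membrane, where it was not past the threshold (limma adjusted p = 0.355) and no finite half-life was obtained, and -0.30 ± 0.03 in cytosol (limma adjusted p = 1.44e-06), with a half-life of 212 ± 35 min. The difference of 0.34 ± 0.05 (95% interval 0.24 to 0.44) had a limma adjusted p of 0.000112. It was the only one of the 6 factors with a higher slope in membrane than in cytosol past the threshold, where 4.94% of all genes had one, and 0 of 6 factors against 1.76% of genes had a lower one. The difference passed under every alternative run for it, with values from 0.30 to 0.48, although the membrane slope itself rose past the threshold when libraries were centred (0.30, limma adjusted p = 0.000224), scaled to the same total (0.22, limma adjusted p = 0.00195) or restricted to 30, 60 and 120 min (0.25, limma adjusted p = 0.0159). The other factors' differences between membrane and cytosol were 0.15 for Upf2 (95% interval 0.05 to 0.24, limma adjusted p = 0.0578), 0.09 for Smg6 (-0.02 to 0.19), 0.02 for Smg5 (-0.06 to 0.10), 0.01 for Upf3a (-0.07 to 0.09) and -0.04 for Upf3b (-0.17 to 0.09).

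In total RNA Smg1 fell little, from 0.759, 0.974 and 0.849 at 30 min to 0.661, 0.696 and 0.614 at 240 min. Its slope there was -0.11 ± 0.04 log2 per hour (limma adjusted p = 0.0288), and turned to 0.12 after centring (limma adjusted p = 0.0304). The call was lost without replicate 2, without replicate 3 and with a last time of 180 min (limma adjusted p = 0.157, 0.177 and 0.0596). In the nucleus its ratios were 0.421, 1.12 and 0.953 at 30 min, 0.986 to 1.07 at 60 min, 0.952 to 1.05 at 120 min and 0.682 to 0.714 at 240 min. The value of 0.421 belongs to the library that stood apart. With it the nuclear slope was -0.09 ± 0.08 (limma adjusted p = 0.386), and without it -0.17 ± 0.04 (limma adjusted p = 0.000919). Without that library the nuclear slope of Smg1 was also higher than the cytosolic one by 0.12 ± 0.04 (limma adjusted p = 0.0424) and lower than the membrane one by -0.22 ± 0.05 (limma adjusted p = 0.0097), neither of which passed with all libraries (limma adjusted p = 0.102 and 0.427).

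**Figure D3:**
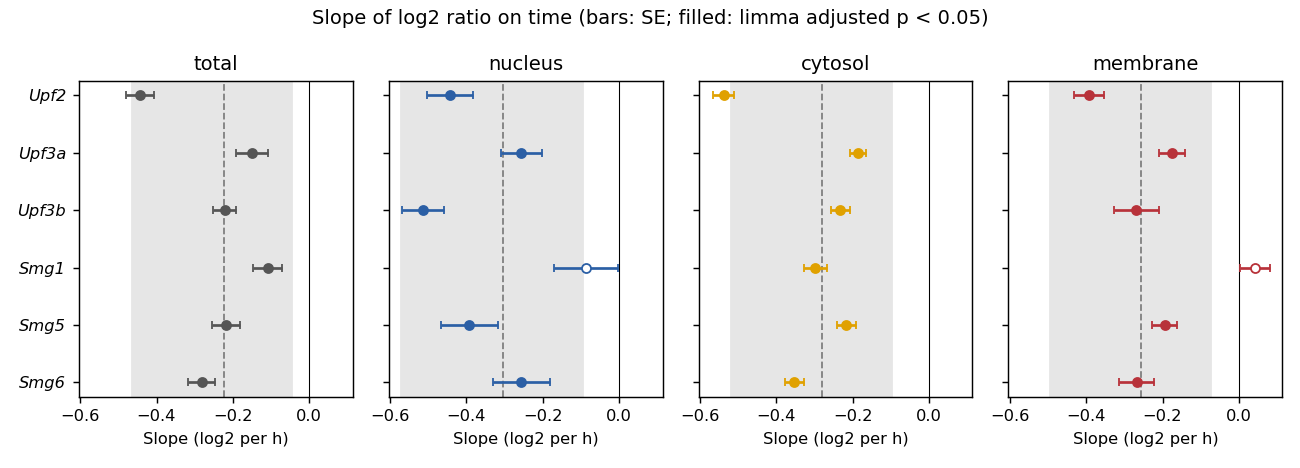
Slope of log2 ratio on time (x axis, log2 per hour) for each factor (y axis) in the 4 fractions. Bars are SE, filled points have a limma adjusted p under 0.05, the dashed line is the median over all genes and the gray band their interquartile range. Smg1 was at 0.04 in membrane and -0.30 in cytosol, and Upf3b at -0.51 in nucleus and -0.23 in cytosol.

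Smg5 and Smg6, which act at the decay step, had unlike time courses. Smg5 (ENSMUSG00000001415, chr3:88336260-88362338, plus strand, 26.08 kb) fell early and far in the nucleus, to 0.391, 0.690 and 0.628 at 30 min, 0.396, 0.369 and 0.403 at 60 min, 0.259, 0.237 and 0.227 at 120 min, and 0.206, 0.207 and 0.188 at 240 min. At 120 and 240 min these were the lowest nuclear values of the 6 factors. In cytosol it was still at 1.06, 1.00 and 0.988 at 30 min and ended at 0.608, 0.616 and 0.578, and in membrane it ended at 0.640, 0.699 and 0.600. Nuclear values lay below all cytosolic and membrane values at each of the 4 times. The difference in slope did not pass the threshold, with most of the nuclear decrease over by 60 min. Nucleus minus cytosol was -0.18 (95% interval -0.33 to -0.02, limma adjusted p = 0.0985) and nucleus minus membrane -0.20 (95% interval -0.36 to -0.04, limma adjusted p = 0.126). Both differences passed after centring (-0.16 and -0.16, limma adjusted p = 0.0269 and 0.0493). The slope itself was -0.22 ± 0.04 in total, -0.39 ± 0.07 in nucleus, -0.22 ± 0.02 in cytosol and -0.19 ± 0.03 log2 per hour in membrane.

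Smg6 (ENSMUSG00000038290, chr11:74925823-75164448, plus strand) encodes the endonuclease of the pathway and, at 238.63 kb, is the longest gene of the 7. In the nucleus it was at 0.591, 1.17 and 0.940 at 30 min, 0.977, 0.901 and 1.07 at 60 min, 1.10, 1.06 and 0.965 at 120 min, and 0.524, 0.522 and 0.443 at 240 min. In membrane it was at 0.716 to 0.795, 0.649 to 0.785, 0.722 to 0.820 and 0.370 to 0.418. In total it was at 0.901 to 0.964, 0.792 to 0.867, 0.771 to 0.905 and 0.451 to 0.474. In each of these 3 fractions the values at 60 and 120 min overlapped, and the values at 240 min lay below all others. In cytosol Smg6 was at 1.09 in all 3 replicates at 30 min and at 0.461, 0.481 and 0.439 at 240 min. The slopes were -0.28 ± 0.04 in total, -0.26 ± 0.07 in nucleus, -0.35 ± 0.03 in cytosol and -0.27 ± 0.05 log2 per hour in membrane (limma adjusted p = 1.72e-05, 0.00884, 7.65e-08 and 0.0002), and that of cytosol alone passed after centring (-0.07, limma adjusted p = 0.0274). The nuclear call was lost without replicate 2 and without replicate 3 (limma adjusted p = 0.082 and 0.114). All 6 genes that overlap Smg6 lie on the opposite strand.

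The log2 ratio of Smg5 minus that of Smg6 in nucleus was -0.65, -1.33, -2.11 and -1.30 at 30, 60, 120 and 240 min. Its straight-line slope was -0.14 ± 0.02 per hour, and the exact permutation test over the 12 libraries gave p = 0.264 (adjusted 0.312). The difference turned after 120 min, so that a straight line does not describe it. Restricted to 30, 60 and 120 min the slope was -0.95 (exact permutation p = 0.000595, adjusted 0.00476). In cytosol the difference went from -0.10 at 30 min to 0.38 at 240 min, a slope of 0.14 ± 0.03 per hour (exact permutation p = 0.00434, adjusted 0.0173). The adjusted p was between 0.0738 and 0.0952 without 1 replicate by the exact test. With times permuted only within each replicate, the exact test gave an adjusted p of 0.055, which did not pass. In total the slope over 30, 60 and 120 min was -0.33 (exact permutation p = 0.00179, adjusted 0.00714), against 0.06 over all times (adjusted 0.312).

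The bend of the time courses was examined with a quadratic term of time, a test added after these values were seen. In total RNA Smg5 and Upf3a bent upward, that is, fell early and then levelled (0.10 ± 0.03 and 0.12 ± 0.03 log2 per hour squared, limma adjusted p = 0.0324 and 0.0241), as 13.1% of genes did, and no factor bent downward, as 0.713% of genes did. In membrane Smg6 bent downward (-0.12 ± 0.03, limma adjusted p = 0.0328), as 2.97% of genes did, and none upward (13.2% of genes). In cytosol, where 2.05% of genes bent downward and 5.0% upward, no factor passed in limma (limma adjusted p from 0.203 for Upf2 to 0.844 for Upf3a), with 1 at an unadjusted p under 0.05. In nucleus, where 1.41% of genes bent downward and 5.77% upward, no factor passed in limma with all libraries, with 2 (Smg5 and Smg6) at an unadjusted p under 0.05, while without the nuclear 30 min library of replicate 1 Smg5 and Upf3b bent upward (0.24 ± 0.04 and 0.15 ± 0.04, limma adjusted p = 0.00745 and 0.0356) and Smg6 downward (-0.15 ± 0.04, limma adjusted p = 0.0388). The counts in total and in membrane were 0 whichever replicate was left out. The bends also turned with the scaling. After centring, 3 factors in total bent downward, Smg1 (-0.14), Smg6 (-0.16) and Upf2 (-0.11, limma adjusted p = 0.0114, 0.00458 and 0.0151), and Smg5 and Upf3a no longer passed upward (limma adjusted p = 0.743 and 0.275). In nucleus Smg1 and Smg6 then bent downward and Smg5 upward, in cytosol Upf2 and in membrane Smg1 and Smg6 downward. Over all genes, centring left 4.91%, 6.65%, 6.21% and 9.04% bent downward and 4.82%, 7.83%, 5.89% and 6.52% upward in total, nucleus, cytosol and membrane.

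The long genes of the group were those with nuclear values near or above 1 at 60 min. Smg6, Smg1 and Upf2 span more than 100 kb, and their mean nuclear ratios at 60 min were 0.983 ± 0.086, 1.03 ± 0.041 and 1.39 ± 0.083 (SD, n = 3). The shorter genes were at 0.843 ± 0.061 for Upf3b, 0.488 ± 0.090 for Upf3a and 0.389 ± 0.018 for Smg5. Gene length moved with the nuclear ratio over all genes as well, in a comparison chosen after these values were seen. At 120 min the median nuclear ratio was 0.455 over 5584 genes under 20 kb, 0.488 over 2658 genes of 20 to 50 kb, 0.633 over 1354 genes of 50 to 100 kb and 0.860 over 1077 genes over 100 kb. Against these, Upf3a (0.419) and Upf3b (0.459) were close to the median of their class, Smg5 (0.241) was below the lower quartile of its class (0.313), and Upf2 (0.829), Smg1 (1.01) and Smg6 (1.04) were within the quartiles of theirs (0.610 to 1.27). At 60 min Upf2 lay above the upper quartile of its class (1.12), while Smg1 and Smg6 were within its quartiles (0.668 to 1.12). Upf3b then lay above the upper quartile of genes under 20 kb (0.817), and Upf3a was within their quartiles (0.398 to 0.817). Smg5 lay below the lower quartile of its class at that time (0.474). At 240 min Upf2 (0.424), Smg6 (0.496) and Smg1 (0.695) were all below their class median of 0.709. In cytosol the classes were closer, with medians of 0.679 under 20 kb and 0.752 over 100 kb at 120 min. The part of length in the members' values was not tested.

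**Figure D4:**
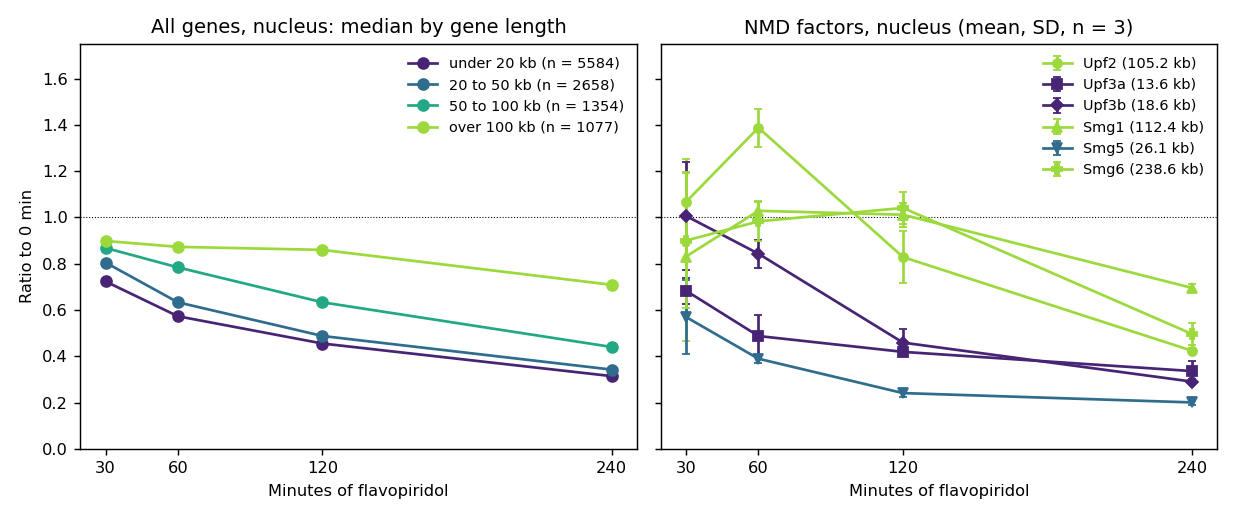
Nuclear ratio to 0 min (y axis) against minutes of flavopiridol (x axis), as medians over all genes in 4 classes of gene length (left) and as means with SD of the 6 factors, colored by the same classes (right; n = 3). At 120 min the class medians go from 0.455 to 0.860, and the factors from 0.241 for Smg5 to 1.04 for Smg6.

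Half-lives of the 6 factors had a median of 250 ± 18 min in total, 177 ± 47 min in nucleus, 237 ± 18 min in cytosol and 275 ± 45 min in membrane (SD over replicate series), against medians over all genes of 244, 176, 213 and 219 min. In total RNA the order was Upf2 (143 ± 14 min), then Smg6 (241 ± 10), Smg5 (242 ± 13) and Upf3b (257 ± 34), which did not differ beyond their spread, then Upf3a (343 ± 28) and Smg1 (589 ± 452). The replicate series of Smg1 were widely spread (1265, 480 and 483 min) but all lay above those of Upf3a (327 to 376 min). In cytosol it was Upf2 (122 ± 6.1 min), Smg6 (181 ± 12), Smg1 (212 ± 35), Smg5 (262 ± 3.6), Upf3b (271 ± 11) and Upf3a (319 ± 48), of which Smg6 and Smg1, Smg5 and Upf3b, and Upf3b and Upf3a lay within the larger of their SDs of each other. In membrane Upf2 (147 ± 40 min) was followed by Upf3b (212 ± 176), with which it overlapped, then Smg6 (267 ± 32), Smg5 (284 ± 36) and Upf3a (313 ± 79). In nucleus the order was Upf3b (98.9 ± 36 min), Smg5 (106 ± 68), Upf2 (155 ± 37), Upf3a (199 ± 58), Smg6 (294 ± 258) and Smg1 (640). Replicate series overlapped between Upf3b and Smg5, Smg5 and Upf2, and Upf2 and Upf3a. Those of Upf3a (167 to 275 min) all lay above those of Upf3b (70.2 to 141 min). The replicate 1 series, which holds the library that stood apart, had the longest nuclear values (672 min for Smg6, not finite for Smg1), against 229 and 223 min for Smg6 and 326 and 414 min for Smg1 in the other 2 series. Without that library the nuclear half-lives were 87.7 min for Upf3b, 90.1 for Smg5, 136 for Upf2, 206 for Upf3a, 231 for Smg6 and 374 for Smg1, with a median of 171 min. Nuclear half-lives describe the net loss of poly(A)+ RNA from the nucleus by export and decay together. Those of cytosol and membrane are net values too, in which RNA arriving from other fractions was not separated from loss. The paper describes half-lives from flavopiridol as aggregated turnover of a compartment, as opposed to rates of passage between compartments. Half-lives longer than the last time sampled, such as those of Upf3a and Smg1 in total, are extrapolated.

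The patterns over all 16 groups of fraction and time were compared by the Euclidean distance between mean log2 ratios, over 10694 genes. Among the factors the closest pair was Upf3a and Smg5, at a distance of 1.31, and Upf3a ranked 305 of 10693 genes by nearness to Smg5. The most distant pair was Smg1 and Smg5, at 3.53. Predicted genes and genes without a symbol were skipped in naming the nearest genes. The genes nearest to Upf3a were Prkag1, a subunit of AMP-activated kinase (0.35), and Csnk1e, a casein kinase (0.45). Nearest to Smg1 were Herc1, a giant ubiquitin ligase (0.75), and Rnf7, a RING partner of cullins (0.83), and nearest to Smg5 were Coq9, a factor of coenzyme Q synthesis (0.65), and Rac3, a small GTPase (0.66). The other nearest genes were Pik3r3 (0.67) and Pawr (0.68) for Upf2, Mns1 (0.61) and Cluap1 (0.66) for Upf3b, and Fnbp1l (0.75) and Ube4b (0.76) for Smg6.

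The partners of these factors were read from lists of the pathway. Their counts stand against the 56.9%, 61.9%, 67.1% and 62.2% of all genes that fell in total, nucleus, cytosol and membrane, and after centring against the 31.0%, 29.2%, 32.4% and 30.9% that fell and the 28.8%, 29.6%, 29.4% and 28.3% that rose. Of 11 other NMD and release factors, 10 were tested, of which 8 fell in total, 8 in nucleus, 9 in cytosol and 10 in membrane, and none rose (after centring 5, 4, 5 and 4 fell and 2, 4, 4 and 2 rose). Their median slopes of -0.36, -0.40, -0.40 and -0.45 log2 per hour were lower than those over all genes. Smg8, a subunit that restrains the SMG1 kinase, fell steeply, with slopes of -1.34 ± 0.05 in total, -1.07 ± 0.07 in nucleus, -1.14 ± 0.04 in cytosol and -1.40 ± 0.07 in membrane and a ratio in total at 240 min of 0.0321 ± 0.0054 (SD, n = 3). Pnrc2, an adaptor to decapping, was at 0.0380 ± 0.0027 in total at 240 min, with slopes from -1.38 in cytosol to -0.88 in nucleus. At the other end in total were Nbas, which serves NMD at the endoplasmic reticulum, with a slope there of 0.03 ± 0.04 (limma adjusted p = 0.546), and Ruvbl2, an ATPase that acts with SMG1, with -0.07 ± 0.08 (limma adjusted p = 0.458). Nbas fell in membrane (-0.09, limma adjusted p = 0.0172). Ruvbl2 fell in nucleus, cytosol and membrane (-0.28, -0.14 and -0.21, limma adjusted p = 0.0307, 0.0347 and 0.0406).

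Of 9 genes of the exon junction complex and its cap-binding partners, 4 of 6 tested fell in total, 3 of 4 in nucleus, 5 of 6 in cytosol and 4 of 4 in membrane, and none rose (after centring 1, 0, 3 and 1 fell and 1, 2, 1 and 1 rose). Eif4a3, the helicase at the core of the complex, had slopes from -0.37 ± 0.02 in cytosol to -0.24 ± 0.03 in nucleus, and its core partner Magoh had a slope in total of -0.02 ± 0.03 (limma adjusted p = 0.691) and fell in cytosol (-0.10 ± 0.02, limma adjusted p = 0.00114). The cap-binding genes Ncbp1 and Ncbp2 fell in total (-0.22 ± 0.02 and -0.28 ± 0.04). The core genes Rbm8a and Casc3 were listed in 5 and 8 of the 48 libraries.

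Of 19 mRNA decay enzymes and cofactors, 10 of 14 tested fell in total, 9 of 14 in nucleus, 13 of 14 in cytosol and 11 of 13 in membrane, and none rose (after centring 4, 3, 4 and 4 fell and 6, 6, 4 and 5 rose). Pan3, a subunit of a deadenylase, and Dcp1a, a decapping cofactor, had the lowest slopes in total (-1.03 ± 0.12 and -0.84 ± 0.07). Xrn1, the cytoplasmic 5′ to 3′ exonuclease, had a slope of -0.02 ± 0.05 in total (limma adjusted p = 0.758) and fell in cytosol (-0.21 ± 0.03, limma adjusted p = 1.02e-05). Cnot7, a deadenylase, passed in none of the fractions in limma (adjusted p from 0.277 to 0.644). Edc4, Cnot1, Pan2 and Dis3l were listed in 4, 1, 6 and 2 libraries.

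Of 16 transcripts known as NMD substrates, 8 of 10 tested fell in total, 9 of 12 in nucleus, 9 of 10 in cytosol and 6 of 7 in membrane, and none rose (after centring 4, 5, 6 and 3 fell and 1, 4, 1 and 1 rose). Trib3 and Atf4, genes of the integrated stress response, had the lowest slopes in total among those listed in all libraries (-1.03 ± 0.11 and -0.97 ± 0.10). The splicing factors Srsf3 and Srsf2, whose poison exons make part of their transcripts NMD targets, were at -0.12 ± 0.05 (limma adjusted p = 0.046) and -0.11 ± 0.06 (limma adjusted p = 0.155) in total. The values are per gene, so that poison-exon isoforms could not be read apart from coding ones.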

How the data were processed

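Poly(A)+ RNA of E14TG2a cells was measured in 48 libraries (4 fractions, 4 times, 3 replicates). As the labels and methods state, the authors mapped reads to mm10 by STAR 2.7.6 and quantified them by RSEM 1.3.3. They then scaled libraries on long-lived genes and related each series to its start. The deposited column is thus a ratio to 0 min, not counts. Genes at 0 are not listed, depth is unknown, and no 0 min library was analysed here. Of 23862 gene identifiers, 23786 were matched to symbols of GENCODE M21. Ratios were log2 transformed without a pseudocount, and slopes on time were fitted with limma 3.58.1 (R 4.3.3, trended variance) for genes listed in all libraries of a fit. P-values were two-sided and Benjamini-Hochberg adjusted over all these genes, with a threshold of 0.05. Half-lives were fitted by least squares as a single exponential with a free starting level. Differences between 2 members were tested by exact permutation over libraries. Scripts were tested on simulated data. The members and gene lists were chosen with earlier results of these data known. Beside the 7 members, the text names the 2 genes with the lowest and the 2 with the highest slope in total RNA of each pathway list, among genes listed in all 48 libraries, and the 2 genes nearest to each member. The nearest genes were taken without predicted genes (Gm and a number, or Rik) and genes without a symbol. Alternatives covered library scaling, omitted replicates or times, a last time of 180 min, the filter, a pseudocount of 0.1, replicate blocks and the form of the fits. For Upf1, listed in 5 libraries, no fit was made, so that 2 of 3 planned pairs were tested.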

Additional observations from a re-analysis of the deposited data

Results flagged for a closer look

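For Smg1 the slope of the log2 ratio in membrane minus that in cytosol was 0.3409 per hour, a difference between fractions tested directly by the interaction of time with fraction (limma adjusted p = 0.000112). The ratios at 240 min were 1.18 to 1.3 in membrane and 0.533 to 0.584 in cytosol. In total RNA Smg1 had a mean ratio of 0.872 at 120 min, below the means of nucleus (1.01), cytosol (0.902) and membrane (1.43) at that time. At 60 min it was also below them (0.838 against 1.03, 1.12 and 1.15), and at 30 and 240 min it lay between them. Each fraction is scaled to its own 0 min level, which by itself does not place total below all its parts. How well the scaling matches between fractions was not tested, and slope differences between fractions rest on it.

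For Upf3b the slope in nucleus minus that in cytosol was -0.2823 per hour by the same test (limma adjusted p = 0.00217). At 240 min its ratios were 0.278 to 0.302 in nucleus and 0.528 to 0.553 in cytosol.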

How the results depend on the processing

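The choice of library scaling moved the results most. The deposited scaling rests on long-lived genes, and centring each library on the median of its genes removes the decrease that most genes share. Counts are given in the order total, nucleus, cytosol and membrane. After centring, 1, 1, 2 and 1 factors fell (31.0%, 29.2%, 32.4% and 30.9% of all genes) and 2, 1, 2 and 2 rose (28.8%, 29.6%, 29.4% and 28.3%). With libraries scaled to the same total, 1, 3, 2 and 1 fell and 1 rose in membrane. Slopes that changed sign when centred were Upf3a (0.0795, 0.0599, 0.0952 and 0.0857), Smg1 in total and nucleus (0.1205 and 0.2297), Smg5 in total, cytosol and membrane (0.0121, 0.0647 and 0.0662), Upf3b in total and cytosol (0.0078 and 0.0493) and Smg6 in nucleus (0.0595). With the same total they were Upf3a in total, cytosol and membrane (0.0108, 0.0338 and 0.0061), Smg1 in total and nucleus (0.0518 and 0.1138) and Smg5 in cytosol (0.0033). Between membrane and cytosol, the slope difference of Upf3a became -0.0110 when centred and -0.0274 with the same total, and that of Smg5 -7.00e-05 and -0.0165. Nucleus minus cytosol had 2 factors lower and 1 higher when centred and 2 lower with the same total, and nucleus minus membrane had 2 lower under both. Over all genes, centring gave 1132 lower and 1919 higher of 11232 for nucleus minus cytosol. For nucleus minus membrane it gave 864 lower and 1142 higher of 11643. All-gene shares are given for the deposited and the centred scaling only, so counts under other settings have no background beside them. Median half-lives were 1053, 602, 3054 and 2683 min with the same total and not finite in all 4 fractions when centred.

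With 30, 60 and 120 min only, 3 factors fell in nucleus and 1 rose in membrane, and median half-lives were 183 min in total and 185 min in membrane. Slopes that changed sign there were Smg1 in total (0.0185) and nucleus (0.2253), Smg6 in nucleus (0.1625) and membrane (0.0069), the differences of Upf3a (-0.0984) and Smg5 (-0.0196) between membrane and cytosol and of Upf2 between nucleus and membrane (0.1076), Smg5 minus Smg6 in total (-0.3278), cytosol (-0.0611) and membrane (-0.3398), and Upf3a minus Upf3b in total (-0.1093) and cytosol (-0.0366). With a last time of 180 min, median half-lives were 195 min in total, 182 in cytosol and 215 in membrane, and 2 factors had a lower slope in nucleus than in cytosol and 2 than in membrane. A straight line on the log2 scale gave 274 min in total, and a start fixed at 1 gave 256 min in nucleus and 305 in cytosol.

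Without the nuclear 30 min library of replicate 1, 1 factor had a higher slope in nucleus than in cytosol, 2 had a lower one than in membrane, 3 were curved in nucleus, and Smg6 in nucleus minus membrane became -0.0507. When centred, 1, 2 and 3 factors were curved in cytosol, membrane and nucleus, and in total the 2 upward bends gave way to 3 downward ones. Leaving out each replicate in turn gave 4 to 6 factors that fell in total and in nucleus, where the calls of Upf3a and Smg1 in total and of Smg6 in nucleus were lost without replicate 2 and without replicate 3. It gave 0 to 1 factors with a lower slope in nucleus than in cytosol, 0 pair tests past the threshold in each case, and 0 curved factors in total and membrane and 0 to 1 in nucleus. It also gave slope differences of both signs for Upf3a (-0.0036 to 0.0242) and Upf3b (-0.1129 to 0.0083) in membrane minus cytosol and for Upf2 (-0.1183 to 4.15e-07) and Smg6 (-0.0505 to 0.0432) in nucleus minus membrane.

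Gene by gene, samples with the same replicate number deviated little together. The median correlation of their deviations over genes lay between -0.01 and 0.04 within a fraction, with 4, 0, 1 and 1 of 18 pairs over 0.1 (up to 0.27 in total), and at the same harvest between 0.01 and 0.05, with 0 or 1 of 12. This check does not see a shift shared by all genes of a library. In total, replicate 1 had the lowest median ratio at 30, 60 and 120 min (0.795, 0.676 and 0.484), but not at 240 min. Under the replicate block 1 pair test passed (Upf3a minus Upf3b in nucleus, exact permutation adjusted p = 0.0347) and Smg5 minus Smg6 in cytosol did not (0.055), and with the harvest as block 1 factor had a lower slope in nucleus than in membrane. Over all alternatives, the slopes of factors within a fraction kept direction and call in 241 cases, lost the call in 26, gained it in 5 and changed sign in 22. For their differences between fractions these numbers were 201, 1, 14 and 12, and for the pair differences 26, 8, 1 and 5. The cause of these changes was not tested. Depth is unknown for these ratios, so no limit of detection can be given.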
